A study of Rattus norvegicus with 6 samples.

Results

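The genes described here are 9 Mas-related and itch neuron genes, chosen by name and given with NCBI Gene IDs: the Mas-related G protein-coupled receptors Mrgprd (293648), Mrgprx3 (252960), Mrgprb4 (404658), Mrgprb5 (404644), Mrgpre (404660) and Mrgprf (266762), the natriuretic peptide precursor Nppb (25105), the interleukin-31 receptor subunit Il31ra (688622) and the lysophosphatidic acid receptor Lpar3 (66025). They were found by symbol in the authors' table of group averages, and all 9 were among its 18696 genes. Expression per library was deposited for 1637 genes, and this table held 2 of the 9, Mrgprd and Lpar3. The other 7 have 1 average per group and no spread between libraries. The 1637 genes held between 25.8% and 27.1% of each library's total TPM, and how they were chosen is not known here. Adjusted p-values, shares of called genes and quantile normalization below refer to genes of this per-library table alone.

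The libraries were made from whole dorsal root ganglia of SD rats, tissue that holds the cell bodies of sensory neurons of body and limbs. For the 3 SNI libraries (spared nerve injury), the tibial and the common peroneal nerve were tied off and cut, a stretch of their far ends was removed and the sural nerve was kept. For the 3 sham libraries, the sciatic nerve with its branches was laid bare and the skin was closed again. A ganglion after this operation holds cut and uncut neurons beside glia, vessels and immune cells. No source used here gives the time after surgery, the side and spinal level, the animals' age and sex, or whether each library of a group is a different animal. The p-values therefore measure only how these samples vary, which may be technical.

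Mas-related receptors are a family of G protein-coupled receptors, several of which are known in rodents from small unmyelinated sensory neurons of the skin. In mouse, these neurons fall into types, among them non-peptidergic nociceptors marked by Mrgprd, touch-related fibres marked by Mrgprb4, and itch neurons that make Nppb and carry the interleukin-31 receptor. Itch mediators act on receptors of such neurons and open TRP channels through phospholipase C or Janus kinases, and the neurons signal to the spinal cord with peptides. The label of the 9 genes joins receptors of these neuron types with Mrgpre and Mrgprf, which are orphan receptors. Mrgprf is also known by the name RTA from rat thoracic aorta, where it was cloned.

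In the RefSeq gene table of the GRCr8 assembly, Mrgprx3, Mrgprb4 and Mrgprb5 lie in 1 cluster of family members, in the order Mrgprx3, Mrgprx1, Mrgprb4 and Mrgprb5, and Mrgprf and Mrgprd are direct neighbours. Nppb lies beside Nppa, the precursor of the atrial natriuretic peptide, and Il31ra beside Il6st, which encodes a related receptor subunit. RefSeq promoter windows were matched for 7 of the 9 genes (Mrgprx3, Mrgprb4, Mrgprb5, Mrgpre, Nppb, Il31ra and Lpar3). The 250 bases before the annotated start of 3 clustered receptors are shown because all 3 receptors had lower averages in SNI and a pair of the windows is alike. These bases lie before the transcripts and do not measure how far reads of the receptors can be told apart. Capitals mark the bases that Mrgprb4 and Mrgprb5 share in a local alignment and, for Mrgprx3, matches to TGTGGT, the core bound by RUNX factors, which reads ACCACA on the other strand. The windows are chr1:106989919-106990168 (minus strand) for Mrgprb4, chr1:107095192-107095441 (plus strand) for Mrgprb5 and chr1:106883146-106883395 (minus strand) for Mrgprx3, all in GRCr8 and written 5′ to 3′.
Mrgprb4: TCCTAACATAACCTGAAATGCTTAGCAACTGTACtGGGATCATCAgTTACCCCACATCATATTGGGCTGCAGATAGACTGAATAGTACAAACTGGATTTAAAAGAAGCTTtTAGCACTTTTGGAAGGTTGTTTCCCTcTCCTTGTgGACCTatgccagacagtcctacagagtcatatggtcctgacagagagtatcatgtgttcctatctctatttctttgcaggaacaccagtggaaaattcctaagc
Mrgprb5: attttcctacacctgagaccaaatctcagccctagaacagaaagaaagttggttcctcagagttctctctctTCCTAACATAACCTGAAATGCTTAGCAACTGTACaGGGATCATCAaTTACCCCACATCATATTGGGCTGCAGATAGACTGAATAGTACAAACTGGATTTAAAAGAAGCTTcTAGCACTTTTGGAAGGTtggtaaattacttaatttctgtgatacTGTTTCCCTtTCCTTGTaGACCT
Mrgprx3: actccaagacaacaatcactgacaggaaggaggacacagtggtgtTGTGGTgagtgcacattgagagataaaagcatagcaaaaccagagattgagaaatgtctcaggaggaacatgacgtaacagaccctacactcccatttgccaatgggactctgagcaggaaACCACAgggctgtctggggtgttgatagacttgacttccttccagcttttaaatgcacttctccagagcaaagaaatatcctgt

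The alignment of the Mrgprb4 and Mrgprb5 windows had 146 identical and 5 different bases, 96.7% identity, with 1 gap of 27 bases. Of the 21 pairs among the 7 windows, this one scored highest (126), and the next pair scored 20.0. The RUNX motif was found in 2 places in the Mrgprx3 window (205 to 200 and 84 to 79 bases before the start) and in no other of the 7. A match in 1 of 7 windows is close to the share among 33469 rat windows of the same length, 14.5%. RUNX1 is needed in mouse for the Mas-related receptors of non-peptidergic neurons, and the authors' averages of Runx1 were 22.4 TPM in SNI and 23.3 TPM in sham. The AP-1 motif TGANTCA and the CRE motif TGACGTCA, searched on both strands, were found in 0 of the 7 windows, against 6.34% and 1.59% of all windows. A match describes letters and does not show binding.

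Multiplied by the 3 libraries of a group, the authors' average read counts were whole (tolerance 0.001) in both groups for 3 of the 9 genes, Mrgprx3, Mrgprf and Nppb. They were whole in 1 group for Il31ra and in neither for Mrgprd, Mrgprb4, Mrgprb5, Mrgpre and Lpar3. Over all genes, 64.8% of averages in SNI and 65.4% in sham were whole. No source used here names the counting tool or its treatment of shared reads, and the transcripts of the family were not compared here. Whether the clustered receptors share reads was not tested, so their values carry that uncertainty.

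TPM is a gene's share of a library's transcripts, corrected for length, so levels can be compared between genes. In the authors' averages for SNI, Mrgprb4 and Mrgpre stood at 40.6 TPM each, Mrgprx3 at 32.3, Mrgprd at 30.8, Il31ra at 29.2, Mrgprf at 14.1, Lpar3 at 12.1, Nppb at 6.36 and Mrgprb5 at 0.863 TPM. In sham the order was Mrgprb4 at 58.9 TPM, Mrgprd at 45.5, Mrgprx3 at 40.7, Mrgpre at 33.6, Il31ra at 27.9, Mrgprf at 10.7, Lpar3 at 9.29, Nppb at 2.43 and Mrgprb5 at 1.07 TPM. The last 4 places were held by the same genes in both groups, and Mrgpre stood above Mrgprx3 and Mrgprd in SNI and below them in sham. Neighbours in this order could not be compared beyond their spread, since only Mrgprd and Lpar3 have values per library. In sham, 83.3% of all genes had an average below that of Mrgprb4 and 22.8% one below that of Mrgprb5.

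**Figure D1:**
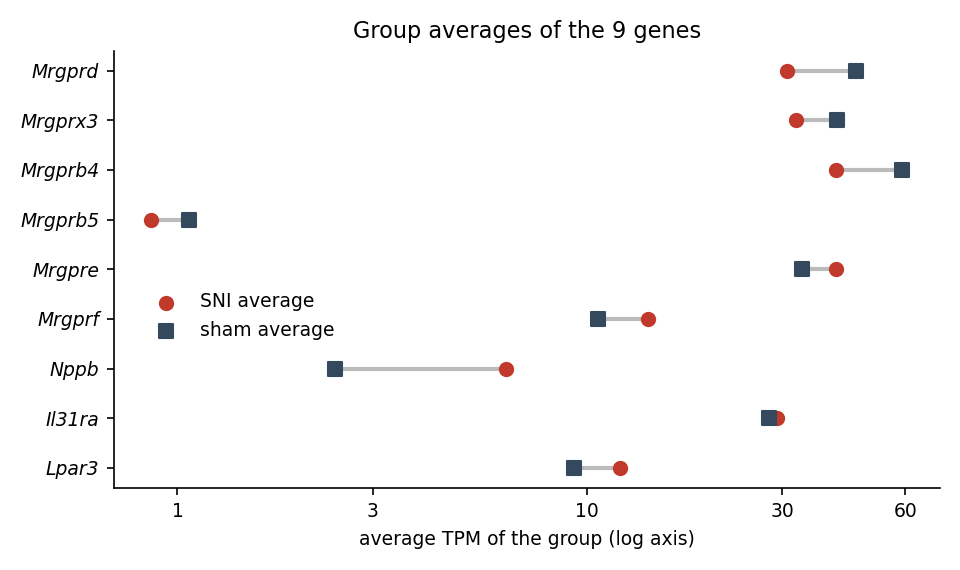
Average TPM of each group (log axis) for the 9 genes, from the authors' table, with SNI as circles and sham as squares and no error, since the table has 1 average per group. Mrgprd, Mrgprx3, Mrgprb4 and Mrgprb5 lie lower in SNI, and the widest gap is that of Nppb, at 6.36 TPM in SNI and 2.43 TPM in sham.

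The 4 receptors Mrgprd, Mrgprx3, Mrgprb4 and Mrgprb5 all had lower averages in SNI, and their summed average was 104.6 TPM in SNI and 146 TPM in sham, a ratio of 0.715. They were grouped after their values were seen, so a ratio of sums below 1 was fixed by the choice. Mrgpre and Mrgprf had higher averages in SNI. Over the 6 receptors the median log2 ratio of averages was −0.32, and over all 18696 genes it was 0.03, with 53.1% of genes higher in SNI. Over all 9 genes, 5 averages were higher and 4 lower in SNI, with a median log2 ratio of 0.07. In the authors' deposited table of higher genes, which held 3.63% of the genes with averages, 1 of the 9 (Nppb) was listed, and in that of lower genes, which held 0.695%, 0 were. No source used here gives the test behind these lists. The log2 ratios computed here from the averages were at least 0.85 for listed higher genes and at most −0.93 for listed lower genes. In whole ganglia, fewer cells of a type and less RNA per cell cannot be told apart.

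Mrgprd, a receptor for beta-alanine in mouse, stood at 30.54, 29.67 and 32.07 TPM in the SNI libraries and at 48.16, 40.52 and 47.78 TPM in the sham libraries. Every SNI library lay below every sham library, and sham replicate 2 was the lowest of the sham group. The means were 30.8 ± 1.22 TPM in SNI and 45.5 ± 4.31 TPM in sham (SD, n = 3 each). Mrgprd fell in SNI, with a log2 fold change of −0.55 on the log2(TPM + 1) scale (95% interval −0.71 to −0.38, SE 0.07, limma adjusted p = 0.00017). In that fit of the 1596 genes whose 6 libraries averaged 1 TPM or more, 29.2% were called lower and 32.0% higher in SNI at an adjusted p under 0.05, so a call is common in this table. The 510 higher and 466 lower calls became 402 and 608 after quantile normalization. Libraries of the groups did not overlap for 31.3% of genes in the lower and 35.3% in the higher direction.

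Sham replicate 2 was the lowest sham library for 46.5% of the 1596 genes, against 27.0% for replicate 1 and 26.5% for replicate 3. Without it, Mrgprd had a log2 fold change of −0.63 (limma adjusted p = 3.8e-05), and its adjusted p over all 12 alternatives ran between 3.8e-05 and 0.0011. Its averages rest on 1033 reads in SNI and 1516 reads in sham. The 5 genes nearest to Mrgprd by the root mean square difference of centred log2(TPM + 1) values over the 6 libraries were Tspyl4, Kif21b, Amigo1, Atp11a and Nat8l (0.04 for each), with log2 fold changes of −0.48, −0.59, −0.58, −0.54 and −0.54. This is a description of likeness in 6 libraries.

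**Figure D2:**
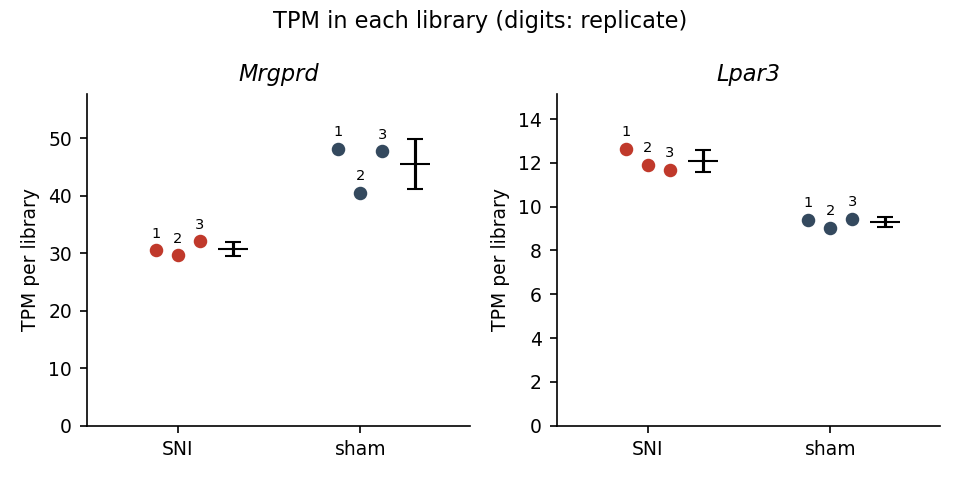
TPM per library of Mrgprd and Lpar3 in SNI and sham, with replicate numbers above the points and the mean ± SD beside them (n = 3 each), on axes that start at 0. The 3 SNI libraries of Mrgprd lie between 29.7 and 32.1 TPM, all below the sham libraries, and those of Lpar3 between 11.7 and 12.6 TPM, all above them.

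Mrgprb4, known in mouse from neurons that respond to stroking of hairy skin, had the highest average of the 9 genes in sham. Its average was 40.6 TPM in SNI and 58.9 TPM in sham, a ratio of 0.689 and a log2 ratio of −0.54. The read counts behind these were 352 in SNI (95% interval 331 to 374) and 507 in sham (482 to 533). These exact Poisson intervals take the average counts, summed over 3 libraries, as unscaled and cover counting error only, here and below. Of 14944 genes with an average of at least 1 TPM in a group, 5.20% had a lower ratio than Mrgprb4, and 4.64% a lower one than Mrgprd.

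Mrgprx3, a receptor of the same cluster whose role in rat is less settled, averaged 32.3 TPM in SNI and 40.7 TPM in sham, a log2 ratio of −0.33. It rested on 375 reads in SNI (353 to 398) and 468 in sham (444 to 493). The ratio of read counts had a counting interval of −0.43 to −0.21 on the log2 scale. Mrgprb5, the neighbour of Mrgprb4 in the cluster, averaged 0.863 TPM in SNI and 1.07 TPM in sham, with 8.24 reads (5.39 to 12.3) and 9.94 reads (6.75 to 14.3). The counting interval of its log2 ratio, −1.09 to 0.55, spans 0, so no difference was detectable at this depth.

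Mrgpre, an orphan receptor, averaged 40.6 TPM in SNI and 33.6 TPM in sham, a ratio of 1.21, with 775 reads in SNI (743 to 807) and 652 in sham (623 to 682). Mrgprf averaged 14.1 TPM in SNI and 10.7 TPM in sham, a ratio of 1.32, with 266 reads in SNI (248 to 285) and 199.7 in sham (184 to 216). In the 14944 genes, 21.3% had a higher ratio than Mrgpre and 14.6% a higher one than Mrgprf. Markers of smooth muscle and mural cells, the contractile cells of vessels, were measured beside Mrgprf: 7 of 10 had higher averages in SNI, their summed averages were 162 TPM in SNI and 139 TPM in sham, and no marker was at 0. The 3 with values per library summed to between 101.6 and 113 TPM in the SNI libraries and between 91.3 and 95.9 TPM in the sham libraries. Of these, Rgs5, of pericytes, and Acta2, smooth muscle actin, rose by log2 fold changes of 0.46 and 0.33 (limma adjusted p = 0.00018 and 0.0021), and Tagln did not pass (−0.10, limma adjusted p = 0.30). Over all tested genes, 32.0% were called higher and 29.2% lower. The part of the smooth muscle and mural markers in the Mrgprf result was not tested.

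Among the 6 other Mas-related genes with averages, Mrgprx1, a receptor of opioid peptide fragments in rat sensory neurons, averaged 14.1 TPM in SNI and 15.9 TPM in sham. Mas1l and Mas1, a receptor linked to the renin-angiotensin system, stood at 1.90 and 0.693 TPM in SNI and at 1.92 and 0.643 TPM in sham. Mrgprb3, Mrgprg and Mrgprx2 had between 0.333 and 4.34 average reads in either group, too few for a ratio. The median log2 ratio of the 6 was −0.09.

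**Figure D3:**
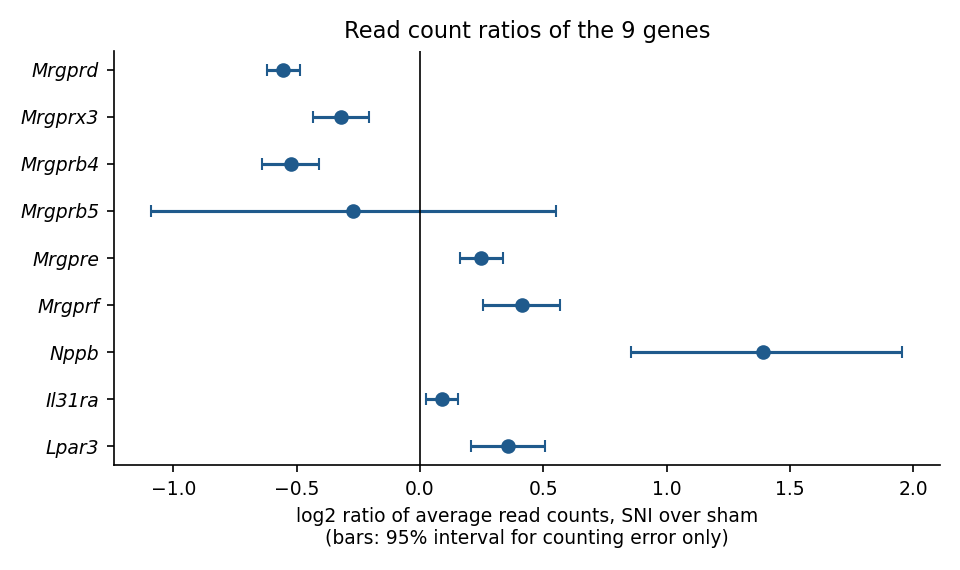
Log2 ratio of the authors' average read counts, SNI over sham, for the 9 genes, with bars for the 95% interval of counting error (exact binomial), which leaves out the spread between libraries. The bars of Mrgprd, Mrgprx3 and Mrgprb4 lie below 0, that of Mrgprb5 spans 0, and the bar of Nppb runs between 0.85 and 1.96.

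Nppb encodes the B-type natriuretic peptide, a heart hormone that in mouse also serves as a transmitter of itch neurons. Its average was 6.36 TPM in SNI and 2.43 TPM in sham, a ratio of 2.62, and the authors' deposited list places it among the higher genes. The averages rest on few reads, 35.0 in SNI (28.6 to 42.4) and 13.3 in sham (9.53 to 18.2), and the ratio of counts had a counting interval of 1.81 to 3.88. Of the 14944 genes, 2.74% had a higher ratio. Nppa, its neighbour in the genome, averaged 12.5 TPM in both groups (ratio 0.997). Heart muscle markers had a summed average of 23.1 TPM in SNI and 28.0 TPM in sham, with 3 of 6 higher and 3 lower, 1 of these in the authors' lower list, and none at 0.

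Of the 7 genes of the natriuretic peptide system, 3 averages were higher and 4 lower in SNI, with a median log2 ratio of −0.00. Corin, a protease that cuts the precursors, was in the authors' lower list at 0.300 TPM in SNI and 0.680 TPM in sham. Furin, another processing protease, averaged 24.6 TPM in SNI and 24.3 TPM in sham. Npr2, the receptor of C-type natriuretic peptide, averaged 72.4 TPM in SNI and 78.4 TPM in sham. Npr3, the clearance receptor, was the 1 member tested, at 4.46 ± 0.450 TPM in SNI and 3.74 ± 0.215 TPM in sham (n = 3 each, limma adjusted p = 0.10).

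Il31ra pairs with Osmr to form the interleukin-31 receptor. Il31ra averaged 29.2 TPM in SNI and 27.9 TPM in sham, a ratio of 1.05, on 1325 reads in SNI and 1245 in sham (counting interval of the log2 ratio 0.02 to 0.15), and 43.2% of the 14944 genes had a higher ratio. Osmr, which also serves oncostatin M, stood at 11.03, 12.15 and 11.89 TPM in the SNI libraries and at 8.88, 8.14 and 7.97 TPM in the sham libraries, which do not overlap. It rose by 0.44 on the log2(TPM + 1) scale (SE 0.07, limma adjusted p = 0.00064), and by 0.29 after quantile normalization (limma adjusted p = 0.0053). Whether the 2 subunits differ in response was not tested, as Il31ra has no values per library. Macrophage markers, of cells that also respond to these cytokines, were higher in SNI for 10 of 10 averages, with sums of 445 TPM in SNI and 191 TPM in sham and none at 0. The 3 with values per library summed to between 22.3 and 24.5 TPM in the SNI libraries and between 15.7 and 16.6 TPM in the sham libraries. Of these, 1 rose and 2 did not pass in limma, while 32.0% of all tested genes were called higher. The part of macrophage markers in the Osmr result was not tested.

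Lpar3, a receptor for the lipid mediator lysophosphatidic acid, stood at 12.64, 11.91 and 11.69 TPM in the SNI libraries and at 9.41, 9.03 and 9.44 TPM in the sham libraries. Every SNI library lay above every sham library. The means were 12.1 ± 0.497 TPM in SNI and 9.29 ± 0.229 TPM in sham (SD, n = 3 each). Lpar3 rose, with a log2 fold change of 0.35 on the log2(TPM + 1) scale (95% interval 0.20 to 0.49, SE 0.07, limma adjusted p = 0.0016). After quantile normalization the change was 0.17 (limma adjusted p = 0.035). The averages of Lpar3 rest on 279 reads in SNI and 218 in sham. The genes nearest to it in pattern over the 6 libraries were Mtr, Lox, Rims2, Ybx1 and Rab3gap2, with root mean square differences of 0.03, 0.04, 0.04, 0.04 and 0.04 and log2 fold changes between 0.35 and 0.40.

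Of 11 other genes of the lysophosphatidic acid system, 8 averages were higher and 3 lower in SNI, with a median log2 ratio of 0.20. None was in the per-library table or in the authors' lists. The receptor Lpar1 averaged 45.1 TPM in SNI and 42.1 TPM in sham, and Enpp2, or autotaxin, which makes the lipid, 15.5 TPM in SNI and 17.9 TPM in sham. Of the phosphatases that break it down, Plpp1 averaged 174 TPM in SNI and 145 TPM in sham, and Plpp3 62.4 TPM in SNI and 61.9 TPM in sham.

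Non-peptidergic nociceptor genes, the company of Mrgprd in mouse, had 4 higher and 8 lower averages in SNI among 12, with a median log2 ratio of −0.12. Of 4 tested, 2 fell and 2 did not pass, while 29.2% of all tested genes were called lower and 32.0% higher. The sodium channel Scn11a stood at 115 ± 0.140 TPM in SNI and 152 ± 7.68 TPM in sham (log2 fold change −0.40, SE 0.05, limma adjusted p = 9.6e-05). Gfra2, the neurturin receptor, stood at 69.4 ± 3.51 TPM in SNI and 82.7 ± 6.28 TPM in sham (log2 fold change −0.25, limma adjusted p = 0.0099). The ATP receptor P2rx3 averaged 329 TPM in SNI and 308 TPM in sham, and the growth factor receptor Ret 309.95 TPM in SNI and 309.4 TPM in sham. Sham replicate 2 was the lowest sham library for 3 of the 4 tested genes. General markers of sensory neurons were present, with 4 of 10 higher in SNI and 6 lower, sums of 17907 TPM in SNI and 16838 TPM in sham and none at 0. Their median log2 ratio was −0.20. Most of both sums came from 3 markers. The tubulin Tubb3 averaged 6108 TPM in SNI and 4726 TPM in sham, and the enzyme Uchl1 6178 TPM in SNI and 6428 TPM in sham. Prph averaged 3393 TPM in SNI and 2762 TPM in sham. The 6 lower markers had log2 ratios of −0.57 (Rbfox3), −0.53 (Prdm12), −0.43 (Snap25), −0.41 (Avil), −0.34 (Isl1) and −0.06 (Uchl1). The 4 higher ones lay between 0.02 (Pou4f1) and 0.37 (Tubb3). By the same measure Mrgprd stood at −0.56, and the part of these markers in its result was not tested. Of 2 tested, the vesicle protein Snap25 fell (log2 fold change −0.43, limma adjusted p = 1.2e-05) and Elavl4 did not pass (0.12, limma adjusted p = 0.15).

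Of 11 itch peptides and cytokines with averages, 7 were higher and 4 lower in SNI (median log2 ratio 0.13). The authors' list of higher genes held 3 of them and that of lower genes 1. Of 5 tested, 2 rose, 2 fell and 1 did not pass. Over all 1596 tested genes, 32.0% were called higher and 29.2% lower, so calls in both directions are common. In mouse, Nts and Sst are peptides of the Nppb neurons. Nts stood at 7.30, 5.64 and 6.03 TPM in the SNI libraries and at 3.81, 2.65 and 2.58 TPM in the sham libraries, and rose (log2 fold change 0.87, SE 0.14, limma adjusted p = 0.00047), by 0.53 after quantile normalization (limma adjusted p = 0.011). Sst stood at 221, 206 and 208 TPM in the SNI libraries and at 290.3, 294 and 323 TPM in the sham libraries, and fell (log2 fold change −0.51, SE 0.05, limma adjusted p = 3.7e-05). The 2 peptides thus changed in opposite directions. The opioid precursor Penk fell (log2 fold change −1.22, limma adjusted p = 3.9e-06). Pdyn, another opioid precursor, had a higher average in SNI, 2.14 TPM against 0.360 TPM in sham. Its averages rested on 45.0 reads in SNI and 7.67 in sham. Pdyn is in the authors' deposited higher list and has no values per library. Calca, the precursor of CGRP, did not pass (0.03, limma adjusted p = 0.52). Endothelin 1, Edn1, passed narrowly (0.36, limma adjusted p = 0.0499), a call lost in 9 of 12 alternatives, and its change was −0.06 after quantile normalization. Tslp, an epithelial cytokine of itch, averaged 34.8 TPM in SNI and 2.73 TPM in sham, and is in the authors' deposited higher list. Keratinocyte markers had sums of 4.17 TPM in SNI and 4.38 TPM in sham, with 1 of 6 higher. None was at 0, but Ivl rested on 0.333 average reads in SNI. The higher one, Krt14, averaged 1.17 TPM in SNI and 0.313 TPM in sham, on 13.95 reads in SNI and 3.48 in sham. Krt14 is in the authors' deposited higher list, and the part of these markers in the Tslp result was not tested.

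Among 24 receptors for itch mediators with averages, 15 were higher and 9 lower in SNI (median log2 ratio 0.13), and 3 were listed by the authors as higher and 0 as lower. Of 3 tested, Osmr and Il7r, a subunit shared by the receptors of interleukin-7 and TSLP, rose (Il7r by 0.32, limma adjusted p = 0.0018, and by 0.18 after quantile normalization, limma adjusted p = 0.023), and the leukotriene receptor Cysltr2 did not pass (14.3 ± 0.155 TPM in SNI and 13.3 ± 1.07 TPM in sham, limma adjusted p = 0.27). In the whole fit, 32.0% of genes were called higher and 29.2% lower. The serotonin receptor Htr1f, in mouse another gene of the Nppb neurons, averaged 1.27 TPM in SNI and 0.320 TPM in sham. Its averages rested on 16 reads in SNI and 4 in sham. Il4r, the interleukin-4 receptor, averaged 26.2 TPM in SNI and 9.64 TPM in sham.

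Genes of itch transduction had 6 higher and 10 lower averages in SNI among 16 (median log2 ratio −0.07). Of 4 tested, Jak1, the kinase of interleukin receptors, rose by 0.24 (limma adjusted p = 0.0016), the sodium channel Scn10a and the G protein subunit Gna14 fell by 0.37 and 0.18 (limma adjusted p = 0.00053 and 0.0063), and Scn9a did not pass (limma adjusted p = 0.69), all as log2 fold changes. Among all tested genes, 32.0% were called higher and 29.2% lower. Jak2 averaged 24.2 TPM in SNI and 11.4 TPM in sham and was in the authors' deposited higher list.

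**Figure D4:**
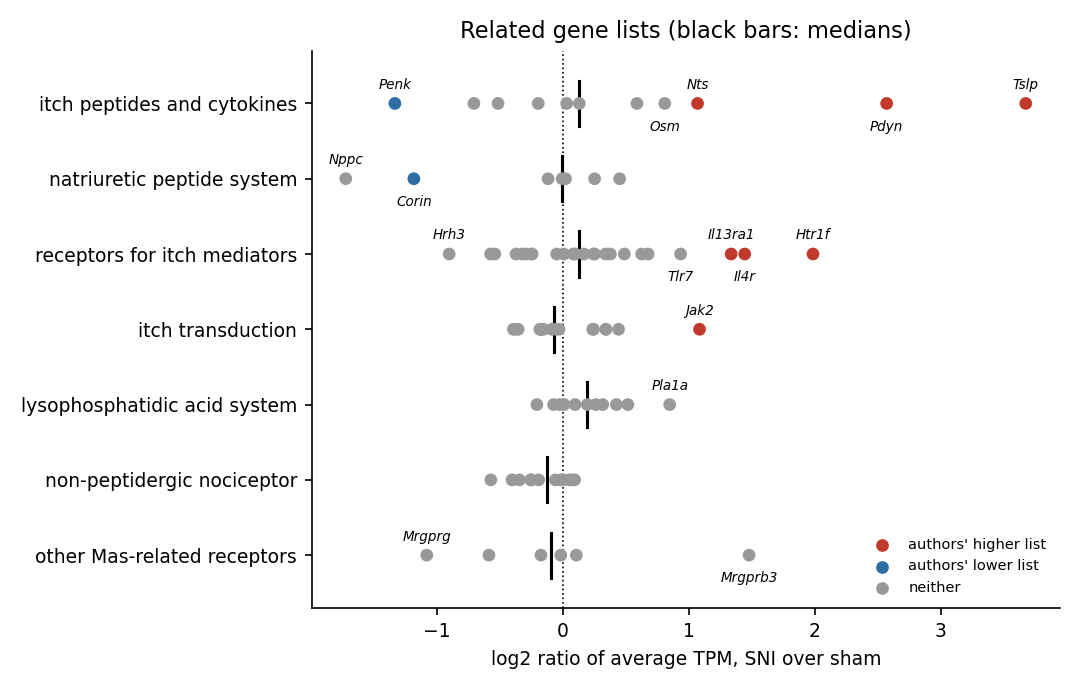
Log2 ratio of average TPM, SNI over sham, for each gene of 7 related lists (points), with the list's median as a black bar and membership in the authors' higher or lower list as colour. Medians lie between −0.12 and 0.20, and Tslp, at 3.67, is the point farthest to the right.

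Across the series, genes of injured sensory neurons had higher averages in SNI for 7 of 7, with sums of 3179 TPM in SNI and 369.7 TPM in sham. Erythrocyte markers did so for 6 of 6 (1843 TPM in SNI and 572 TPM in sham). Satellite glia markers had higher averages in SNI for 5 of 6, and their sum, 8323 TPM in SNI and 9072 TPM in sham, was mostly Apoe (7526 TPM in SNI and 8348 TPM in sham). Fibroblast markers were higher for 2 of 6 and summed to 804 TPM in SNI and 862 TPM in sham. Mast cell markers were higher for 4 of 10 and summed to 29.1 TPM in SNI and 30.7 TPM in sham, mostly Kit (21.7 TPM in SNI and 21.8 TPM in sham). The 5 with values per library, the proteases Cpa3, Tpsab1, Tpsb2, Cma1 and Mcpt1l1, summed to between 1.84 and 3.78 TPM in the SNI libraries and between 5.94 and 7.56 TPM in the sham libraries. Cpa3, Tpsab1, Tpsb2 and Cma1 averaged under 1 TPM in both groups, on 1.67 to 8.33 average reads. Of the proteases, Mcpt1l1 was the 1 tested and fell (log2 fold change −1.07, limma adjusted p = 0.00039). The mast cell markers with higher averages in SNI were Hdc, Hpgds, Fcer1a and Ms4a2, none with values per library. Hdc, the enzyme of histamine synthesis, averaged 2.47 TPM in SNI and 0.593 TPM in sham and is in the authors' deposited higher list. None of these markers was at 0, and their part in the results above was not tested. Summed over genes, the deposited average counts came to 18.5907 M reads in SNI and 18.5901 M reads in sham, which is nearly equal. Whether the counts were brought to a common depth was not tested, and the depth of single libraries is unknown. The counting intervals above hold only if the counts are unscaled. Pearson's r of log2(TPM + 1) between libraries of a group, across 1596 genes that are not independent replicates, was between 0.994 and 0.996.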

How the data were processed

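RNA of 3 SNI and 3 sham libraries was compared. Per the labels' protocols, Trizol and mirVana are both named for extraction, as are TruSeq and NEBNext for the libraries, so the preparation is uncertain. Aligner, counter, build, annotation and strand setting: not given in the sources used here. Per the file headers, the deposited values are TPM of each library for 1637 genes, group averages of TPM and of reads for 18696 genes, and 2 lists, of 699 genes higher and 136 lower. The deposited reads are estimated counts averaged per group, with no scaling stated. Control columns were taken as sham. Averages over libraries equalled the deposited averages for 1628 shared genes (tolerance 0.001 TPM).

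The 1596 genes averaging 1 TPM or more (41 left out) entered limma 3.58.1 under R 4.3.3 as log2(TPM + 1), using its intensity trend and no term but group, and p-values were adjusted by Benjamini-Hochberg over all 1596. The procedure was tested on simulated data. A permutation test of 3 against 3 cannot go below p = 0.1, so none was run. Ratios of averages have no pseudocount and no test, and their counting intervals are exact (95%), from counts rounded to whole reads. Other steps ran in Python 3.11.15 (scipy 1.17.1, Biopython 1.88). Promoter windows are RefSeq's, by Gene ID. Local alignment scored 1 for a match, −1 for a mismatch, −2 for opening and −0.5 for extending a gap.

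The members and lists were chosen with earlier results of these data known. All 9 genes are named, from each related list up to 4 (called with the largest change, then in the authors' lists, then most abundant), and the 5 genes nearest in pattern to each tested member. Calca, Pdyn, Tslp, Cysltr2, Scn9a, Npr3, Runx1, Mrgprg, Mrgprx2 and the cell markers are named beside this rule, after their values were seen.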

Additional observations from a re-analysis of the deposited data

How the results depend on the processing

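Over 12 alternatives (pseudocounts of 0.1 and 0.5, no filter on low values, quantile normalization, no intensity trend, the replicate block and leaving out each library), Mrgprd and Lpar3 kept their direction and their limma calls. Leaving out 1 library gave Mrgprd −0.63 to −0.50 and Lpar3 0.31 to 0.37 on the log2 scale, and 834 to 983 called genes against 976 (445 to 524 higher and 387 to 477 lower). Deviations of same-numbered libraries had r = −0.09, −0.06 and 0.19 for numbers 1, 2 and 3. Libraries of different numbers had r between −0.29 and 0.29, so no pairing by number was seen. Whether the samples were paired cannot be settled from these values. With the replicate block 945 genes were called, 933 of them shared with the fit without it, and Mrgprd and Lpar3 had limma adjusted p of 9.8e-05 and 0.0053. The log2 ratio of averages kept its direction for all 9 genes with a pseudocount of 0.1 or 1 and from read counts, at 1.10 to 1.39 for Nppb and −0.28 to −0.15 for Mrgprb5. Depth limits Mrgprb5 and Nppb most, and the other limit is that 7 of 9 genes have no spread between libraries.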
